A study of Xenopus tropicalis with 8 samples.

Results

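Solute carriers (SLC) are the membrane proteins that move ions, nutrients, metals, nucleotide sugars and metabolites across cell and organelle membranes, and their transcripts were measured in whole embryos of the western clawed frog, Xenopus tropicalis, exposed to the azo dye Disperse Yellow 7 (DY7). Genes were taken by symbol: slc followed by a family number, or slco, with the red cell genes slc4a1 and slc25a37 left out. Of 354 such genes in the RefSeq gene table, 122 had a probe on the array. A gene was tested where its probe lay well above background on all 4 DY7 arrays or on all 4 control arrays, which left 75 genes in 36 families, out of 3436 named genes tested in all. Of the 47 not tested, 23 had a probe well above background on no array, 9 on 1 to 4 arrays and 15 on 5 or more. The brightest probe stood for each gene. Symbols in the slc series include 2 among the 75, slc4a1ap and slc7a6os, that are named after a neighbouring or interacting carrier and are not carriers themselves.

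The DY7 group was 4 samples of embryos exposed to 887 ppm of the dye, which is used on synthetic textiles, and the control group was 4 samples labelled as having no treatment. Both groups span embryonic stages 12 to 46, from gastrula to feeding tadpole. The study asked how the dye alters gene expression during development. The labels name no vehicle, strain, clutch or number of embryos per sample, so p-values measure the spread between these samples, which may be technical.

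An SLC family shares a fold and usually a kind of substrate, and most members work by exchange or cotransport, using a gradient built by ion pumps. Families 4 and 26 move bicarbonate, sulphate and other anions, families 8 and 9 exchange sodium for calcium or protons, families 30 and 39 move zinc and manganese out of or into the cytosol, and family 35 carries nucleotide sugars and the sulphate donor PAPS into the Golgi apparatus and endoplasmic reticulum. In a frog embryo they act in every tissue, with many concentrated in the pronephros, the larval kidney, and in the gut.

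Levels are log2 signals relative to the 75th percentile of the probes on the same array, and a fold change is DY7 minus control on that scale. Signals at the 75th percentile ran from 126 to 202 on the DY7 arrays and from 162 to 327 on the control arrays. Each of 7 arrays had the probes of all 75 genes well above background, and control 2 had 50 of the 75. The other 25 genes therefore passed through the DY7 group alone. The arrays lay on 2 slides, replicates 1 and 2 of both groups on slide 1 and replicates 3 and 4 on slide 2. Each sample is a whole embryo extract, in which fewer cells of a type and less RNA per cell cannot be told apart. Of 9 listed pronephros markers 3 were measured (cdh16, pax8 and lrp2), none was called, and their summed level, in multiples of the 75th percentile signal, ran from 32.8 to 38.8 on DY7 arrays and from 28.5 to 40.9 on control arrays.

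DY7 embryos had higher levels of 4 SLC genes and lower levels of 2. Those that rose were slc33a1, which carries acetyl-CoA into the endoplasmic reticulum, slc26a1, a sulphate exchanger, slc8a3, a sodium and calcium exchanger, and slc35b2, the PAPS transporter of the Golgi apparatus. Those that fell were slc39a8, an importer of zinc and manganese, and slc35a3.1, a transporter of UDP-N-acetylglucosamine. Calls were made with limma where the p-value, adjusted by Benjamini and Hochberg's method over the 20289 probes tested, was under 0.05; the 6 calls were 8% of the 75 genes, against 14.1% of all probes. Calls of a rise came to 5.33% of the genes, against 9.06% of all probes, and calls of a fall to 2.67%, against 5.07%. The rises counted include slc26a1, whose probe passed the filter through the DY7 group alone. With no filter on dim probes its adjusted p was 0.0543, and it was not called. That setting also lost slc39a8 (adjusted p = 0.0629), slc35b2 (0.107) and slc35a3.1 (0.127), whose probes were well above background on all 8 arrays. The loss is therefore not particular to slc26a1. In both directions the share of SLC genes called was below that of the array as a whole, a difference that was not tested.

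Across the 75 genes the fold changes ran from -0.77 to 1.00 with a median of 0.18, and 52 were above 0. The median was 0.06 over all probes, of which 56.8% were above 0. The 25 genes that passed through the DY7 group alone were kept because their signal was high there, a selection that favours values above 0, so the share above 0 and the median over the 75 genes carry no weight as results. Among the 50 genes well above background on all 8 arrays the median was 0.10, with 3 called higher and 2 lower, and over all probes that met the same condition it was 0.02. A fit limited to those probes called 1856 of 16694 higher and 1310 lower. Fold changes also varied with signal level: the median over all probes was 0.23 in the dimmest of 5 bins and 0.003 in the brightest. The 75 SLC probes were dimmer than the array (median level -1.41 against -0.56). Levels were not matched between the medians 0.10 and 0.02, and their difference was not tested. When replicate numbers were fitted as a block, 10 SLC genes were called higher and 3 lower, which is 13 of 75, and 25.3% of all probes were called (16% higher and 9.25% lower). Scaling moved every fold change: the median of all probes was 0.06 as reported, -0.06 with each array scaled to its median and -0.42 with no scaling, so signs of small fold changes hold for the reported scaling.

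**Figure D1:**
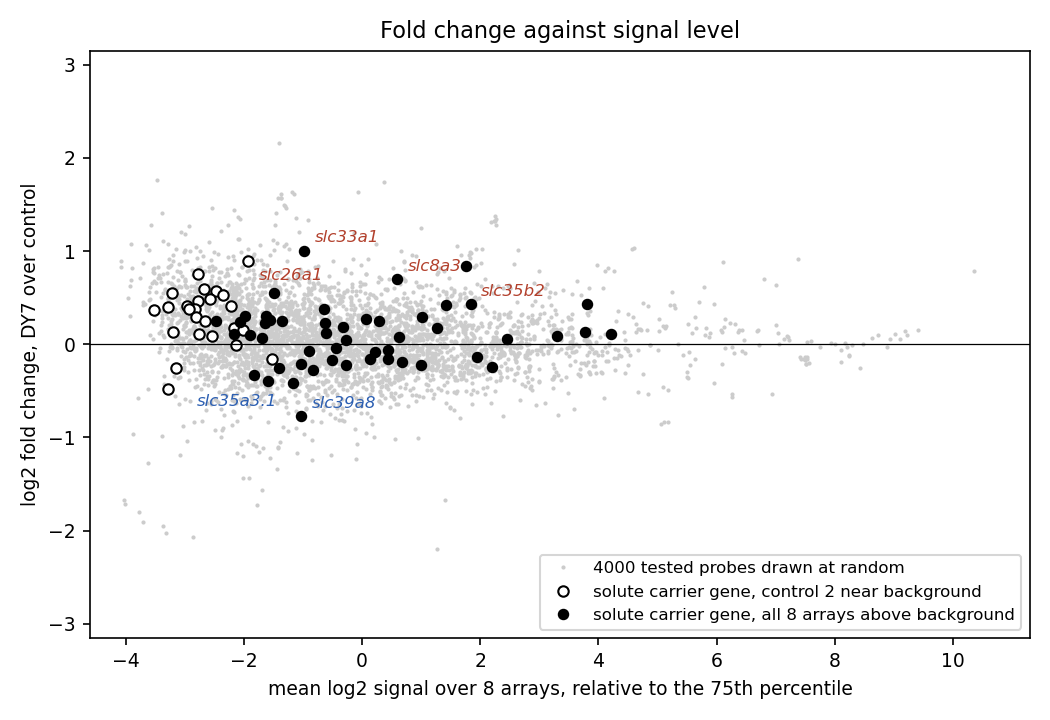
Each black or open circle is 1 of the 75 solute carrier genes, plotted by its mean log2 signal over 8 arrays (x axis, relative to the 75th percentile) and its log2 fold change in DY7 over control (y axis); grey points are 4000 tested probes drawn at random. Open circles are the 25 genes whose probe was not well above background on control 2; they lie at the dim end, and because they were kept for their DY7 signal alone their fold changes favour values above 0. The 6 called genes carry their names.

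Among 5 exchangers of sodium, protons and calcium, 1 rose and none fell, with a median fold change of 0.25. This median includes slc9a4, which passed the filter through the DY7 group alone, so it is not a result. slc8a3, one of the plasma membrane exchangers that clear calcium from excitable cells, is read by a probe that the array design names as cross-hybridising. Its levels were 0.96, 1.01, 1.07 and 0.73 in DY7, against 0.23, 0.39, 0.16 and 0.21 in control. All DY7 arrays lay well clear of the controls, and the fold change of 0.70 ± 0.11 (adjusted p = 0.00659) was 0.68 and 0.71 within slides 1 and 2. The related slc8a2 also had DY7 levels above all control levels, 0.39, 0.43, 0.35 and 0.46 against 0.06, 0.10, 0.24 and 0.23, but its fold change of 0.25 ± 0.09 was not called (adjusted p = 0.0888). slc8a1, the cardiac form in mammals, overlapped between groups at 0.26 ± 0.15. The sodium and proton exchanger slc9a4, found in the stomach of mammals, was at -0.01, with a wide 95% interval of -0.83 to 0.81. That value leaned on control 2, the array on which its probe was not well above background. Control 2 stood at -0.93, with the nearest control at -2.01. slc24a5, a pigment granule exchanger, stood at 0.23 ± 0.14.

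**Figure D2:**
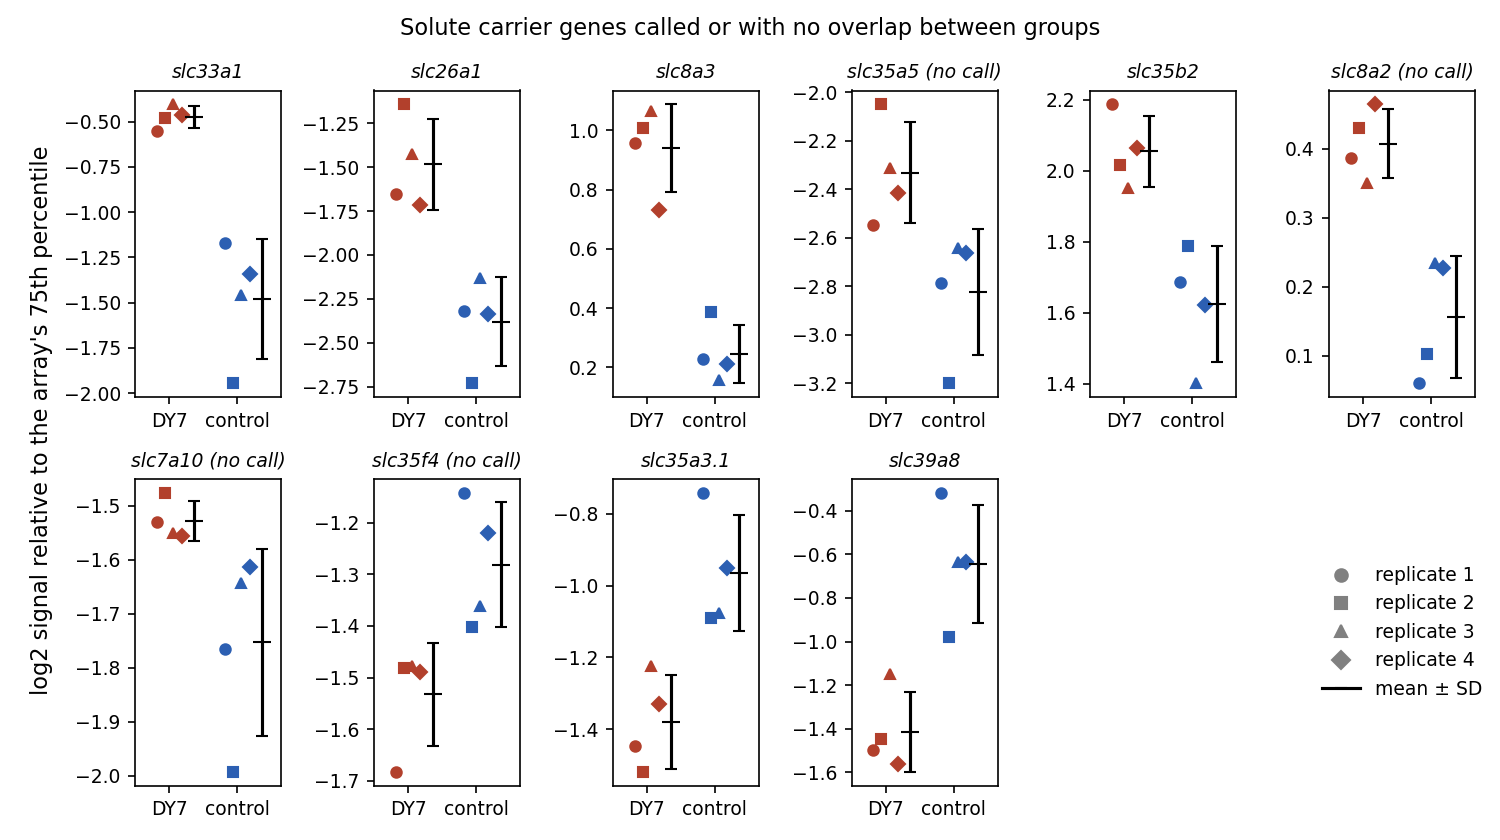
Log2 signal relative to the array's 75th percentile (y axis, scaled to each gene) on the 4 DY7 arrays (red, left) and 4 control arrays (blue, right) for the 10 genes with no overlap between groups, of which 6 were called; symbols mark the replicate number and the bar is mean ± SD. slc33a1 shows the tight DY7 group at -0.55 to -0.41 above controls that spread from -1.95 to -1.17. slc26a1 and slc35a5 passed the filter through the DY7 group alone.

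slc33a1 is the one carrier of family 33 and serves the acetylation of proteins and sialic acids in the secretory pathway. Its levels were -0.55, -0.48, -0.41 and -0.47 in DY7 and -1.17, -1.95, -1.46 and -1.34 in control. The DY7 samples lay close together (SD 0.06, against 0.33 in control) and above every control, control 2 being the lowest. The fold change was 1.00 ± 0.16 (2.01-fold, adjusted p = 0.00686), with 1.04 within slide 1 and 0.97 within slide 2.

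Of the 10 carriers of bicarbonate and other anions, 1 rose and none fell, with a median of 0.39. All 10 fold changes were above 0, but 7 of the 10 (slc26a1, slc26a2, slc26a4l, slc26a5, slc26a11, slc4a10 and slc4a11) were not well above background on control 2 and passed the filter through the DY7 group alone, so neither this count nor the median is a result. The other 3, slc4a4, slc4a8 and slc26a7, were at 0.43, 0.10 and 0.12. With no scaling 3 of the 10 were above 0. slc26a1, which exchanges sulphate for oxalate or bicarbonate in kidney and liver of mammals, had levels of -1.65, -1.14, -1.42 and -1.72 in DY7, against -2.32, -2.73, -2.13 and -2.33 in control. The groups lay apart, with control 2, the array on which the probe was not well above background, the lowest. Its fold change was 0.90 ± 0.16 (adjusted p = 0.0117), 1.13 within slide 1 and 0.66 within slide 2. A second probe of slc26a1 gave 1.03 ± 0.17 (adjusted p = 0.00805), and 2 further probes were too dim to be tested. The second probe also passed the filter through the DY7 group alone, so it shares the selection of the first.

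None of the other 5 members of family 26 was called. slc26a2, a sulphate transporter needed for cartilage in mammals, was at 0.59 ± 0.23 (adjusted p = 0.105), and slc26a4l, slc26a5, slc26a11 and slc26a7 ran from 0.12 to 0.37. In family 4, slc4a11 had the largest fold change, 0.57 ± 0.22 (adjusted p = 0.104), from levels of -2.46, -1.92, -1.80 and -2.53 in DY7 and -2.78, -3.17, -2.31 and -2.75 in control. Its DY7 replicates 1 and 4 overlapped the controls. slc4a4, the sodium and bicarbonate cotransporter of the kidney tubule, had levels of 1.60, 1.95, 1.75 and 1.22 in DY7 and 1.19, 1.27, 1.20 and 1.15 in control, so that DY7 4 overlapped. Its fold change of 0.43 ± 0.15 missed the threshold (adjusted p = 0.0831) and passed it with the replicate block (adjusted p = 0.0498).

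Family 35 was the largest, with 8 genes. Of these 1 was called higher and 1 lower, where 9.06% of all probes were called higher and 5.07% lower. The median was -0.20, or 0.06 with normexp after extreme local backgrounds were replaced. In this family slc35a5, slc35b3, slc35d2 and slc35e4 passed the filter through the DY7 group alone, so the median is not a result. slc35b2, which carries PAPS into the Golgi apparatus for sulphation of proteoglycans, had levels of 2.19, 2.02, 1.95 and 2.06 in DY7 and of 1.69, 1.79, 1.40 and 1.62 in control. Every DY7 sample lay above every control. The fold change was 0.43 ± 0.11 (adjusted p = 0.0337), 0.37 and 0.50 within slides 1 and 2. slc35a3.1, which supplies the Golgi apparatus with UDP-N-acetylglucosamine for the branching of N-glycans, had levels of -1.45, -1.52, -1.22 and -1.33 in DY7, against -0.74, -1.09, -1.08 and -0.95 in control. Every DY7 sample lay below every control, and the fold change of -0.41 ± 0.12 (adjusted p = 0.0429) was -0.57 within slide 1 and -0.26 within slide 2. When 1 array was left out, each of these calls held only without control 2, with fold changes of 0.36 to 0.48 for slc35b2 and -0.47 to -0.34 for slc35a3.1. slc35b2 also lost its call with scaling to the median (0.31, adjusted p = 0.214) and slc35a3.1 with the slide as a block (adjusted p = 0.0533).

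In the rest of family 35 no gene was called, and 2 had groups that did not overlap. slc35a5 had levels of -2.55, -2.05, -2.31 and -2.41 in DY7, above the -2.79, -3.20, -2.64 and -2.66 of the controls, at 0.49 ± 0.16 (adjusted p = 0.0625). Its dim probe passed the filter through the DY7 group alone, a selection that favours values above 0. slc35f4 lay below the controls at -0.25 ± 0.10 (adjusted p = 0.122). The substrates of both are poorly known. slc35b3, a second PAPS transporter, was at 0.13 ± 0.16 on a dim probe, and slc35c1, the GDP-fucose transporter, at -0.24 ± 0.12 on a cross-hybridising probe. slc35d2 and slc35e4 were at -0.16 and -0.26. Over the 75 genes the 4 arrays of each group lay apart for 10, or 13.3%, of which 4 were not called, against 21.6% of all probes. DY7 was above control for 7 of the 75 genes, against 12.7% of all probes, and below for 3 of the 75, against 8.86%. The 7 include slc26a1 and slc35a5, which passed the filter through the DY7 group alone.

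Among 11 carriers of metals, 1 fell and none rose, with a median of 0.11. Of these carriers, slc41a1, slc39a12 and slc11a1 passed the filter through the DY7 group alone, so the median is not a result. slc39a8, which brings zinc and manganese into cells, had levels of -1.50, -1.45, -1.15 and -1.56 in DY7 and of -0.32, -0.98, -0.63 and -0.63 in control. All 4 DY7 samples lay below all 4 controls, of which control 2 was the lowest and control 1 the highest. The fold change was -0.77 ± 0.15 (1.71-fold lower, adjusted p = 0.0146), with -0.82 within slide 1 and -0.72 within slide 2. The other 5 genes of family 39 lay between 0.06 and 0.30 and none was called; with scaling to the median 3 of them, slc39a1, slc39a2 and slc39a7, were below 0.

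slc39a1, a zinc importer of the plasma membrane, and slc39a7, which releases zinc from the secretory pathway, were 2 of the 5 SLC probes with the highest signal. Signals of different probes do not rank transcript levels. The 95% intervals were -0.12 to 0.33 for slc39a1, whose probe cross-hybridises, and -0.16 to 0.28 for slc39a7. slc30a3, which loads zinc into synaptic vesicles in mammals, had levels of 3.50, 4.63, 4.33 and 3.66 in DY7 and of 3.44, 3.64, 3.74 and 3.56 in control. DY7 2 and DY7 3 were high, DY7 1 and DY7 4 lay among the controls, and the fold change of 0.43 ± 0.23 was not called (adjusted p = 0.218). slc11a1, an iron and manganese transporter of phagocytes, was at -0.48 ± 0.21 (adjusted p = 0.135), and slc30a10, a manganese exporter, at -0.23 ± 0.13. The copper carrier slc31a2 was at 0.18 ± 0.09 and the magnesium carrier slc41a1 at 0.41 ± 0.25.

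**Figure D3:**
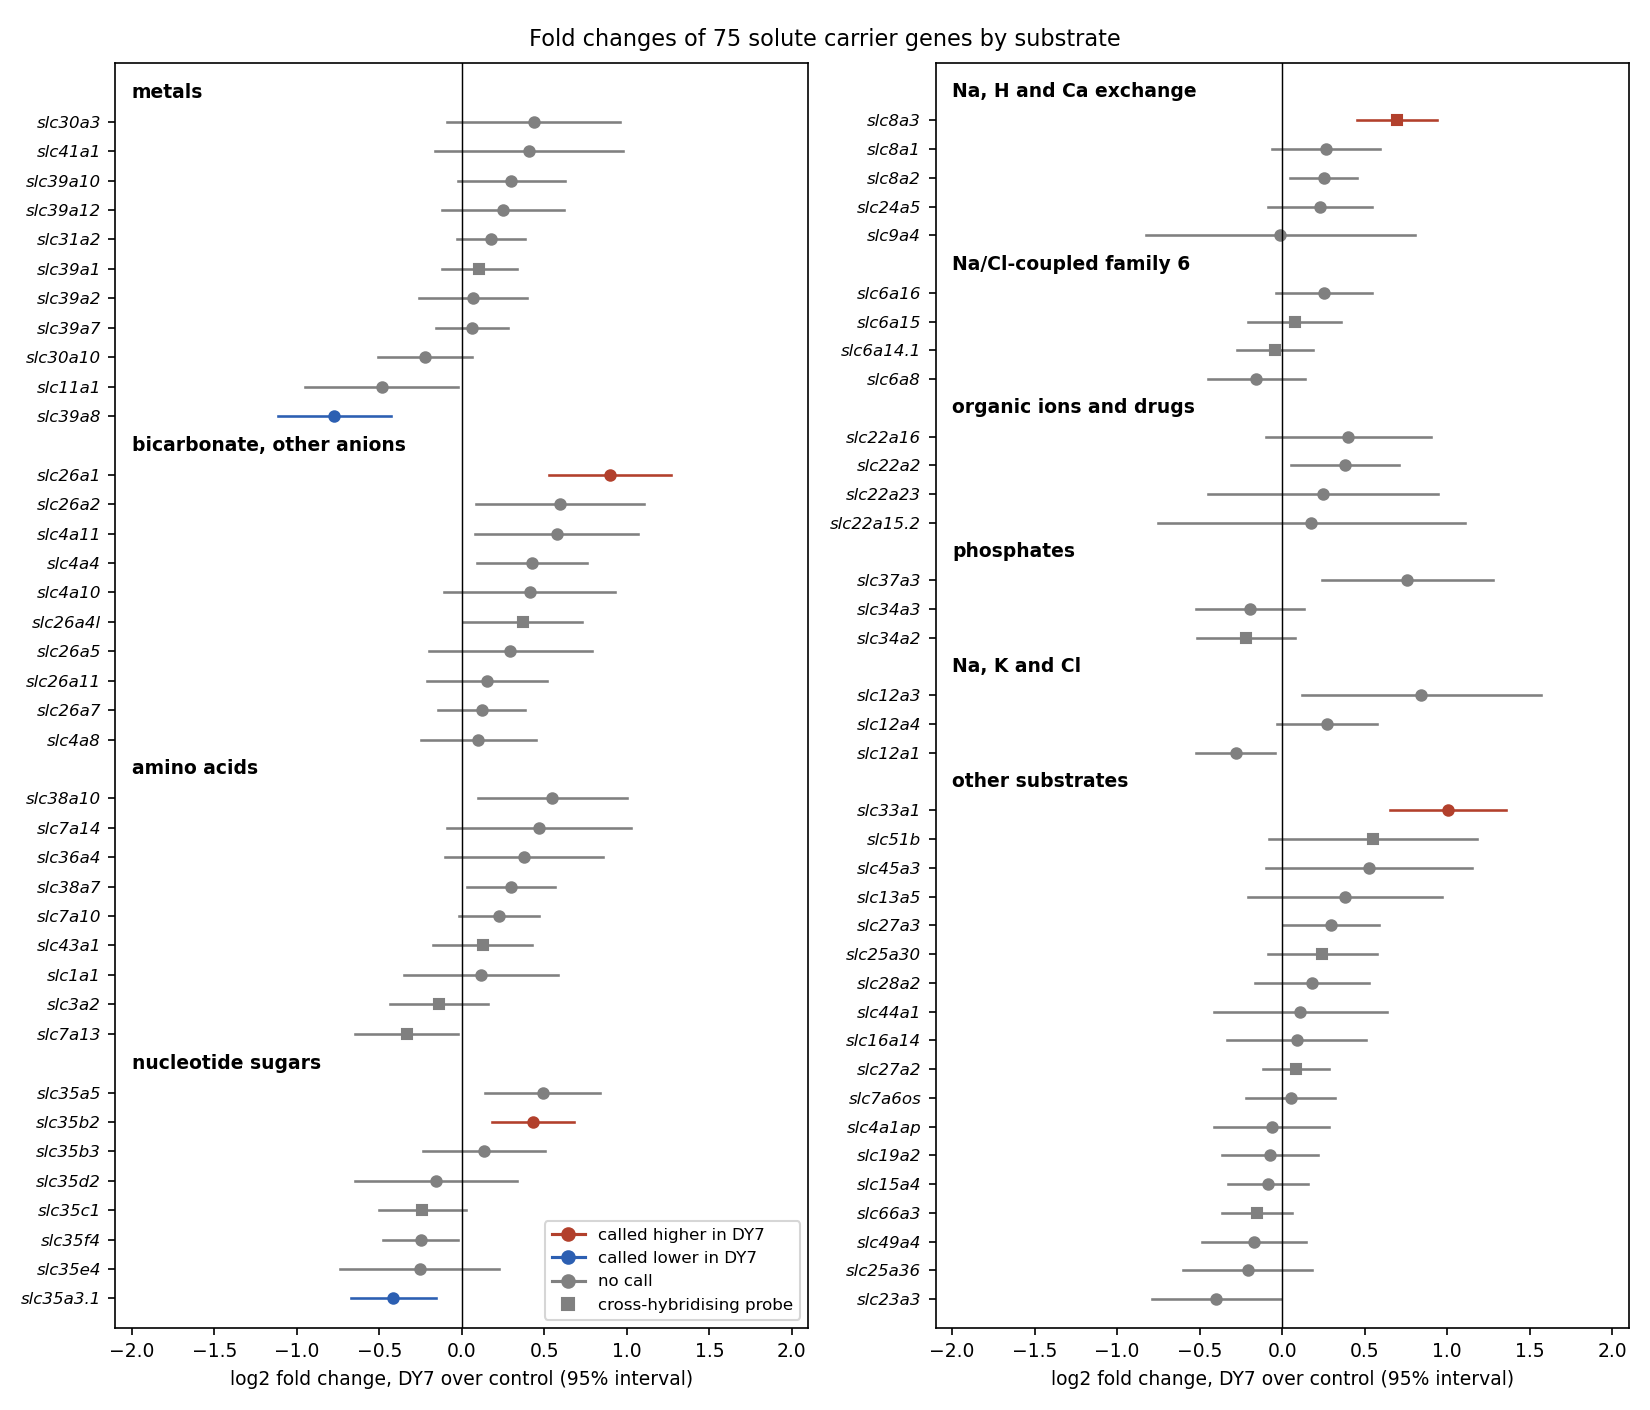
Log2 fold change in DY7 over control with its 95% interval (x axis) for each of the 75 genes, grouped by substrate; red and blue are called higher and lower, grey is no call and squares are cross-hybridising probes. The 10 carriers of bicarbonate and other anions all lie right of 0 (3 of 10 with no scaling), but 7 of them passed the filter through the DY7 group alone. Family 35, the nucleotide sugar carriers, lies on both sides with a median of -0.20 (0.06 with repaired normexp). Its members slc35a5, slc35b3, slc35d2 and slc35e4 passed in the same way, so this median is not a result.

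None of the 9 carriers of amino acids was called. Their median was 0.22 and 7 were above 0, against 1 with no scaling. Of these carriers, slc7a14, slc36a4 and slc1a1, all above 0, passed the filter through the DY7 group alone. Neither the count above 0 nor the median is therefore a result. slc38a10 had the largest fold change, 0.55 ± 0.20 (adjusted p = 0.0923, and 0.0378 with the replicate block). slc7a10, a neutral amino acid exchanger, had groups that did not overlap, -1.53, -1.48, -1.55 and -1.56 in DY7 against -1.77, -1.99, -1.64 and -1.61 in control, with a difference of only 0.22 ± 0.11 (adjusted p = 0.171). slc3a2, the glycoprotein partner of several family 7 exchangers, was at -0.14 (95% interval -0.44 to 0.16), and slc43a1, a carrier of large neutral amino acids on one of the 5 brightest probes, at 0.13 (-0.17 to 0.43). Both are read by cross-hybridising probes. The glutamate carrier slc1a1 stood at 0.12 ± 0.21 on a dim probe.

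The sodium and chloride cotransporters of family 12 gave the largest fold change that was not called. slc12a3, the cotransporter of the distal kidney tubule that thiazides block, had levels of 1.63, 2.95, 2.66 and 1.46 in DY7 and of 1.08, 1.48, 1.62 and 1.13 in control. DY7 2 and DY7 3 lay far above the controls, and DY7 4 lay among them. Its fold change was 0.84 ± 0.32 (adjusted p = 0.104) and was called with the replicate block (adjusted p = 0.0328). slc12a1, the cotransporter of the preceding tubule segment, was at -0.28 ± 0.11 (adjusted p = 0.103), and the potassium and chloride cotransporter slc12a4 at 0.27 ± 0.13 (adjusted p = 0.189). The 2 phosphate carriers slc34a2 and slc34a3 were at -0.22 and -0.19, neither called. Most of the pronephros marker sum given above came from cdh16, on a cross-hybridising probe, which was at 0.07 ± 0.13. lrp2, the endocytic receptor megalin, had levels of 0.31, 0.34, 0.52 and 0.49 in DY7 against 0.75, 0.56, 0.54 and 0.68 in control, so that every DY7 sample lay below every control, at -0.22 ± 0.10 (adjusted p = 0.157). The transcription factor pax8, also on a cross-hybridising probe, was at -0.21 ± 0.12 with overlapping groups. The part of these markers in the values of the SLC genes was not tested.

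The split within the DY7 group seen for slc12a3 and slc30a3 recurred, over all probes as well as among SLC genes, so it is not particular to them. DY7 2 and DY7 3 both lay above DY7 1 and DY7 4 for 33 of the 75 genes (44%), against 30.6% of all probes, and both lay below for 13 (17.3%), against 28.7%. The differences between these shares were not tested. The labels and slides do not separate these pairs, since DY7 1 and DY7 2 shared a slide. Among the controls, control 2 was the lowest for 49 genes (65.3%), against 49.6% of all probes. The 75 genes include the 25 whose probe was not well above background on control 2. That condition favours a low value there, so this count is not a result. The median SLC level per array was -1.50, -1.29, -1.22 and -1.50 in DY7 and -1.26, -1.40, -1.36 and -1.39 in control, so the groups overlapped.

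Carriers of other substrates had no call apart from slc33a1. The 4 organic ion carriers of family 22 lay between 0.18 and 0.40, and all below 0 with no scaling. Of these carriers, slc22a15.2 and slc22a16 passed the filter through the DY7 group alone. The lowest, slc22a15.2, rested on control 2, which stood at -0.80 with the nearest control at -2.59; without that array its fold change was 0.66 and called (adjusted p = 0.0317). slc22a2, the renal organic cation carrier of mammals, was at 0.38 ± 0.14 (adjusted p = 0.102). The fatty acid proteins slc27a2 and slc27a3 were at 0.08 and 0.30. slc27a2, on one of the 5 brightest probes, which cross-hybridises, had an interval of -0.12 to 0.28. slc37a3, of the family that exchanges sugar phosphates for phosphate, was at 0.76 ± 0.23 (adjusted p = 0.0558) on a dim probe that passed through the DY7 group alone. It was called with quantile normalization (0.62, adjusted p = 0.0415), with scaling to the median (0.64, adjusted p = 0.0464), in the authors' log2 matrix (0.62, adjusted p = 0.0329) and without DY7 4 (0.94, adjusted p = 0.0249). slc51b, a subunit of the bile acid exporter, was at 0.55 ± 0.28 on a cross-hybridising probe that also passed through the DY7 group alone. Its control 2 value was -4.37, with the nearest control at -3.30. The 4 genes of family 6, among them the creatine carrier slc6a8, lay between -0.16 and 0.25, and slc23a3, a relative of the ascorbate carriers, at -0.40 ± 0.17 (adjusted p = 0.142, and 0.0317 with the replicate block, 0.0433 with quantile normalization and 0.041 with scaling to the median). Of the 69 genes with no call, 61 had a 95% interval that stayed within 1 log2 unit of 0 on either side, and 52 had one that included 0. Of the same 69 genes, 17 were called under at least 1 of the alternatives. The matching count over all probes was not made, so this count is not a result. Some alternatives also called more of all probes, such as 25.3% with the replicate block against 14.1% as reported.

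Transporters outside the slc series were set beside them, together with 2 accessory and regulating genes, srebf1 and wnk4. Of these 21 measured genes, 3 rose and none fell, with a median of 0.08. The 3 calls were 14.3% of these genes, near the 14.1% of all probes. Of 7 genes of the ABC family, which uses ATP, 1 was called: abcf1, a family member that acts in translation and not at a membrane, rose by 0.61 ± 0.12 (adjusted p = 0.0146). Of 6 ion pumps, the copper pump atp7b rose by 0.90 ± 0.25 (adjusted p = 0.0442), with control 3 inside the DY7 range; its dim probe passed the filter through the DY7 group alone. Of 5 further carriers of the major facilitator kind, mfsd4b, a sodium-dependent glucose carrier in mammals, rose by 0.53 ± 0.13 (adjusted p = 0.032). When 1 array was left out, mfsd4b lost its call without DY7 2, DY7 3, control 1 or control 4 (0.45 to 0.54), and atp7b without any array but DY7 1, DY7 4 and control 3 (0.70 to 0.86); mfsd4b also lost its call with scaling to the median, and atp7b with the slide as a block. The sodium pump subunits atp1b2 and atp1b4, which serve the gradient that many SLC proteins use, were at 0.22 ± 0.10 and 0.04 ± 0.10, and the single aquaporin, aqp10, at -0.03 ± 0.26.

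Of the 9 measured markers of other tissues, apob and epor rose and nefl, tnnt1 and krt78.6 fell, where 14.1% of all probes were called. The lists were chosen with earlier results of these data known, so the number of markers called is not a result. The adjusted p was 0.0286 for apob, 0.0413 for epor, 0.0307 for nefl, 0.00185 for tnnt1 and 0.0167 for krt78.6. apob, the 1 liver and gut marker measured of 11, rose by 0.55 and ran from 105 to 129 on DY7 arrays against 68.1 to 98.1 on control arrays, in multiples of the 75th percentile. The 2 neural markers of 8, nefl and nefm, summed to 24.0 to 29.6 in DY7 and 31.0 to 39.1 in control. The 1 epidermal marker of 4, krt78.6, ran from 0.79 to 0.94 in DY7 and from 1.10 to 1.20 in control. The 2 muscle markers of 7, myh6 and tnnt1, summed to 67.3 to 92.7 in DY7 and 80.8 to 87.6 in control. The red cell marker epor, 1 of 5, ran from 1.38 to 1.82 in DY7 and 1.11 to 1.24 in control. The retina markers rho and pde6c, 2 of 6, summed to 1.52 to 1.70 in DY7 and 1.23 to 1.49 in control, and neither was called. The dim probe of pde6c passed the filter through the DY7 group alone, so this sum is not a result. On the log2 scale rho, read by a cross-hybridising probe, ran from 0.48 to 0.57 in DY7 and from 0.16 to 0.51 in control, so its groups overlapped. The part of these shifts in the SLC values was not tested.

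The calls differed in how they held under other scalings. slc33a1, slc26a1, slc8a3 and slc39a8 kept their calls in all 8 omissions of 1 array, with quantile normalization, with scaling to the median and in the authors' deposited log2 matrix. With the background subtracted by normexp after extreme local backgrounds were replaced, slc33a1 (0.65), slc26a1 (0.53) and slc8a3 (0.54) kept theirs. In that setting slc39a8 (-0.36, adjusted p = 0.0755), slc35b2 (0.29, adjusted p = 0.077) and slc35a3.1 (-0.13, adjusted p = 0.274) lost their calls. Without any scaling between arrays slc39a8 was the single SLC gene called, at -1.25. All of these settings kept the probe filter of the reported fit. slc26a1 passed that filter through the DY7 group alone, so these settings cannot test its selection. With no filter on dim probes slc26a1 was not called (adjusted p = 0.0543), and only slc33a1 and slc8a3 kept their calls.

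**Figure D4:**
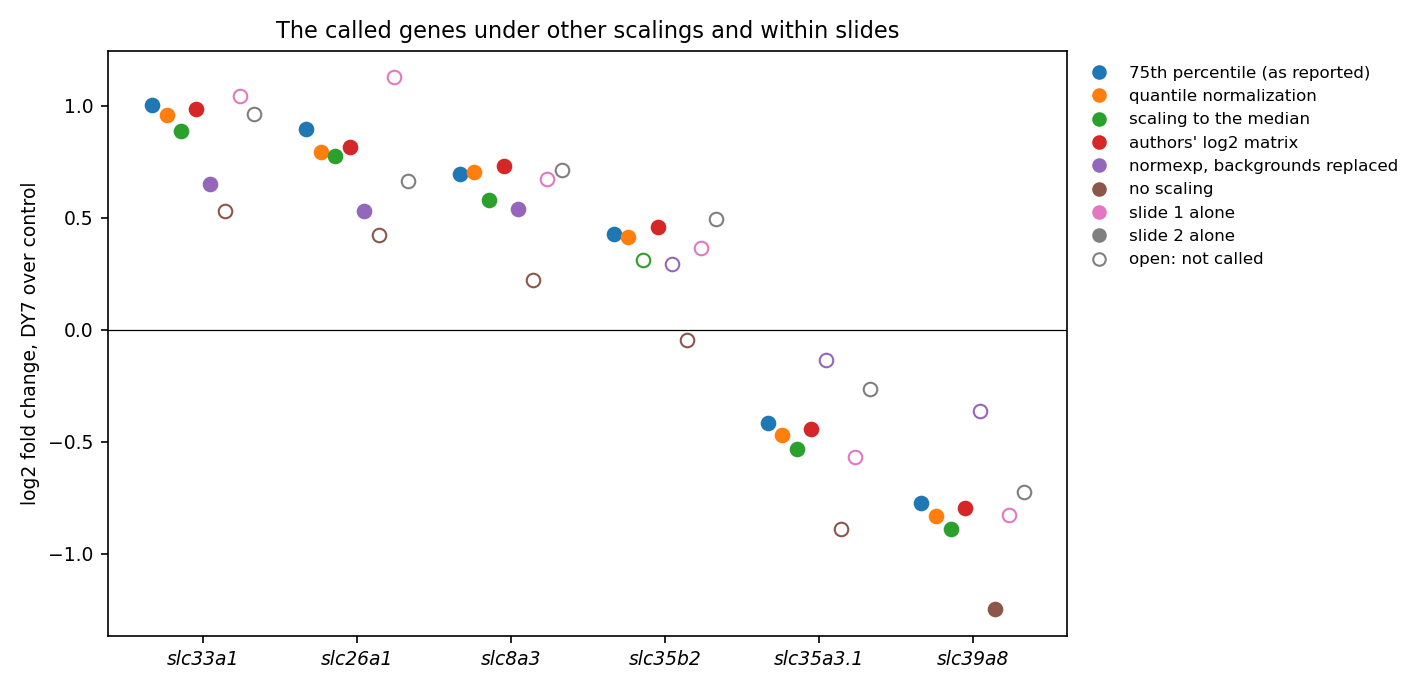
Log2 fold change in DY7 over control (y axis) of the 6 called genes, each under the reported scaling, other scalings, the authors' log2 matrix and within each slide (colours); filled circles passed an adjusted p under 0.05. slc35b2 is the one gene of the 6 whose sign turned, at -0.04 without scaling, and no gene was called within a single slide of 2 arrays a group.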

How the data were processed

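Total RNA of 4 DY7 and 4 control samples was hybridised to single-colour (Cy3) Agilent arrays. The deposited scanner files hold intensity values per spot from Agilent Feature Extraction 10.7.3.1 (slide 1) and 10.7.1.1 (slide 2), background-corrected within each array, per the file headers. The authors' deposited series matrix holds log2 values of the same spots; the correlation of a column with the scanner values of its array was at least 0.986, its medians ran from 5.17 to 5.19 on DY7 arrays and 5.10 to 5.27 on control arrays, and how it was centred stays unknown.

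Of 45220 spots, 1417 control spots were left out and none was saturated. Spots without outlier flags were averaged on the log2 scale into 32899 probes, and each array's 75th percentile of these was subtracted. A probe counted as well above background on an array where all its spots without outlier flags were. The filter kept 20321 probes, 32 of them emptied by flags, so 20289 were tested with limma 3.58.1 (lmFit, eBayes, two-sided, Benjamini-Hochberg over all probes) in R 4.3.3, with version 1.17.8 of data.table. The script was tested on simulated data. With arrays, the number of arrays limits the precision. Transcript accessions were named through RefSeq (UCB_Xtro_10.0), which matched 5891 probes. Of the 75 SLC genes, 61 were read by specific probes and 14 by cross-hybridising ones, and slc26a1 and slc51b had more than 1 probe. Some genes that meet the rule or stood on the lists are not reported here; they remained in the fit over all probes. The design predates that assembly, so no positions are given.

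The members and lists were chosen with earlier results of these data known, and the substrate groups were completed once the data had been seen. Named by rule were called members (at most 15 rises and 15 falls), the 5 brightest, the largest fold change in each family of 5 or more, and up to 8 called other transporters; the other genes named were chosen after their values were seen. Replicate numbers were read from the titles, which state no pairing, and the reported fit was unpaired. Deviations from group means correlated at 0.306, 0.107, 0.455 and 0.449 between DY7 and control arrays of the same number, 1 to 4. DY7 1, DY7 3 and DY7 4 each correlated most with the control of their own number. DY7 2 correlated most with control 3 (0.305), and DY7 4 also correlated with control 1 (0.237). Whether equal numbers mark pairs is therefore not known. Alternatives covered scaling, background, filter, slide, pairing, single arrays, adjustment and probe choice. The files have no mean-signal column, so normexp (offset 50) used the median signal. Local backgrounds over 3 times the array's median were replaced in its repaired form.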

Additional observations from a re-analysis of the deposited data

Results flagged for a closer look

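In 11 of 192 groups of 4 arrays, taken over the 75 SLC genes and the 21 other transporters and regulating genes, 1 array stood far from the other 3. Chance flags about 1 group in 20. The check was run first on the genes named by rule and then widened to all of these genes. Of these, 8 were control 2, the array with the fewest probes well above background (51.6%). Control 2 lay below the other controls for slc51b (-4.37, nearest -3.30), slc19a2, a thiamine carrier (-1.14, nearest -0.81), slc25a36, a mitochondrial nucleotide carrier (-1.45, nearest -0.82), slc30a10 (0.91, nearest 1.15), slc11a1 (-3.47, nearest -2.94) and atp2c1, a Golgi calcium and manganese pump (-1.95, nearest -1.46). It lay above them for slc22a15.2 (-0.80, nearest -2.59) and abcc4, an export pump of organic anions (-1.41, nearest -2.91). The other 3 were DY7 1 for slc13a5, a citrate carrier (-1.86, nearest -2.84), DY7 1 for slc35f4 (-1.68, nearest -1.49) and control 3 for atp7b (-3.03, nearest -3.76). No called SLC gene was among the 11.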

How the results depend on the processing

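Counts of SLC genes called are given as higher and lower in DY7, against 4 and 2 as reported, with a reported median of 0.18; calls over all probes, 1839 and 1028 as reported, follow in brackets. They were 5 and 4 with quantile normalization (1965 and 1657), 4 and 3 with scaling to the median (median fold change 0.060; 1035 and 1330), 0 and 1 without scaling (median -0.30; 34 and 685), 8 and 4 in the authors' log2 matrix (2452 and 1647), 3 and 0 with repaired normexp (956 and 498), 2 and 0 (slc33a1 and slc8a3) with no filter over 122 genes (336 and 226), and 4 and 1 with the slide as a block (1747 and 994). Plain normexp gave 0 and 0 (median -0.0082; 6 and 8). Within each slide, with 2 arrays a group, no SLC gene was called in either direction (1 and 5 on slide 1, 0 and 0 on slide 2). With the replicate block they were 10 and 3 (3247 and 1877). Without 1 array they ran from 3 to 9 and from 1 to 2, with medians from 0.14 to 0.21 (714 to 1995 and 322 to 1581); the 9 rises came without DY7 4, and 3 rises and 1 fall without DY7 2, DY7 3, control 1, control 3 or control 4. Taking the 75th percentile over spots, the definition tried first and replaced after both results were seen, gave 4 and 1 (1840 and 899), with slc35a3.1 not called (adjusted p = 0.0518). The sign of slc35b2 (-0.043) turned without scaling. The cause of these differences was not tested.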
